A study of Homo sapiens with 6 samples.

Results

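The 14-3-3 proteins are a family of adaptor proteins with 7 human genes, YWHAB (beta), YWHAE (epsilon), YWHAG (gamma), YWHAH (eta), YWHAQ (theta), YWHAZ (zeta) and SFN (sigma, stratifin). All 7 are rows of the deposited table of 32985 genes, and all 7 passed the filter on low values that left 11725 genes for testing. The family was chosen from measured values, because YWHAE was lower after NUF2 knockdown in these same libraries, so the family's differences between the groups are given as a description and support no test of the family.

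RNA-seq was performed in 8505C, a human anaplastic thyroid cancer (ATC) cell line, with 3 libraries from cells given a control siRNA (siCtrl, labelled WT) and 3 from cells given an siRNA against NUF2 (siNUF2, labelled NUF2 knockdown). NUF2 is a subunit of the NDC80 complex, which ties kinetochores to spindle microtubules, and the comparison asks which transcripts follow its knockdown. The titles give 24 h for every library, and no other agent or allele is named for either group. The model is 1 cell line with 1 siRNA sequence against NUF2, and the labels do not say whether libraries with different replicate numbers were separate cultures, so p-values measure only the spread between these libraries, which may be technical.

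Each 14-3-3 protein binds peptides that carry a phosphorylated serine or threonine, and works as a homodimer or, for most pairs of members, as a heterodimer. Binding holds a client protein in the cytoplasm, blocks or fixes its active form, or brings it to a partner. In dividing cells the family is best known for holding the phosphatase CDC25C away from CDK1 after checkpoint phosphorylation, for keeping BAD, FOXO factors and YAP1 from their sites of action, and for holding RAF kinases in an inactive or an active form. YWHAE forms mostly heterodimers, while SFN forms mostly homodimers and is limited largely to epithelial cells.

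The libraries held between 61257859 and 69755291 counts, with TMM scaling factors between 0.987 and 1.01, and no library stood apart in either value. NUF2 read 14.8, 14.5 and 12.2 FPKM (fragments per kilobase of transcript, scaled to library size) in siCtrl and 1.53, 2.05 and 1.56 in siNUF2, 12.4% of the siCtrl mean. The labelled cell type was checked against marker genes. Of 7 thyroid follicular markers in the table, only NKX2-1, a thyroid transcription factor, was above the filter (18.5 FPKM in siCtrl), while PAX8 read 0.575 and the thyroglobulin gene TG read at most 0.0143 in any library. KRT8 and KRT18, keratins of simple epithelia, read 89.4 and 159 FPKM and the mesenchymal filament gene VIM 499, whereas the epithelial adhesion gene CDH1 was listed at 0 in all siCtrl libraries. The summed leukocyte markers stayed between 5.72 and 9.51 FPKM in siCtrl and between 5.85 and 7.82 in siNUF2. Of these, CD68 (means of 5.69 FPKM in siCtrl and 5.32 in siNUF2) and CD14 (2.11 and 1.43) were above the filter. PTPRC and CD3E did not exceed 0.518. Of the endothelial and fibroblast markers, CDH5 and COL3A1 were above the filter. The summed endothelial markers lay between 1.06 and 2.41 FPKM in siCtrl and between 0.686 and 3.33 in siNUF2. The summed fibroblast markers lay between 0.465 and 4.91 FPKM in siCtrl and between 0.907 and 6.27 in siNUF2. The fibroblast marker COL1A2 read 0 in library 1 of both groups, and CDH5 was highest in library 2 of both. None of the tested marker genes changed in edgeR's fit. In bulk RNA, fewer cells of a type and less RNA per cell cannot be told apart.

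The members differ in a short sequence word. The methods give the sequence of the siRNA against NUF2, whose guide strand pairs through its seed (positions 2 to 8 from its 5′ end) with the letters TATGGAA. The 3′ UTRs of YWHAE and YWHAQ hold this word, and those of the other 5 members do not. Stretches of 21 bases are shown for the siRNA's target in NUF2 and for every copy of the word in the members' 3′ UTRs. All are GRCh38, written 5′ to 3′ along the transcript with the 7-base word in capitals. The stretch of NUF2 is the siRNA's own target, in the coding sequence within exon 6 of 14 at chr1:163336814-163336834 on the plus strand. That of YWHAE lies in the 3′ UTR within exon 6 of 6 at chr17:1344784-1344804 on the minus strand. Those of YWHAQ lie in the 3′ UTR within exon 6 of 6 at chr2:9585175-9585195 and chr2:9583998-9584018, both on the minus strand.
NUF2 target: gccgtgaaacgtaTATGGAAt
YWHAE: gcgttgaaggtggTATGGAAa
YWHAQ, near the stop codon: acccattcatgtgTATGGAAt
YWHAQ, near the transcript end: tggttaagtgttaTATGGAAt

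The stretches of YWHAE and YWHAQ were picked and aligned by the word TATGGAA, so its bases equal those of NUF2 by construction. With the word's bases included, the YWHAE stretch had 13 of 21 aligned bases equal to the NUF2 target, and the YWHAQ stretches had 13 and 12. Whether the bases outside the word match more often than by chance was not tested. The word begins at base 656 of the 1172-base 3′ UTR of YWHAE, and at bases 104 and 1281 of the 1319-base 3′ UTR of YWHAQ. Searched on the transcript strand in the longest annotated 3′ UTR, TATGGAA was held by 1637 of 10174 tested genes with such a UTR (16.1%), and 2.85% held at least 2 copies. The shorter word ATGGAA, which lies inside TATGGAA, was held by 5 members, with none in YWHAZ or SFN, and by 46.2% of genes. YWHAZ, with the longest 3′ UTR of the family at 4170 bases, holds no copy of the longer word. SFN has the shortest, at 497 bases, and also holds none. A match of letters is a description and not a binding site.

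In siCtrl cells YWHAE was the most abundant 14-3-3 transcript per length. Its level was 185 ± 9.95 FPKM (SD, n = 3), rank 163 of the 11725 genes tested. YWHAQ followed with 141 ± 20.8 and YWHAZ with 98.2 ± 8.87. SFN read 76.2 ± 13.8 FPKM, YWHAB 58.3 ± 2.56, YWHAG 44.8 ± 1.44 and YWHAH 37.1 ± 0.769. The 3 libraries of each member did not overlap with those of its neighbour in this order, although the gap between YWHAZ (lowest library 92.9) and SFN (highest library 92.1) was small. The most abundant member exceeded the least abundant by 4.79 to 5.12 times within a siCtrl library. Counts, which are not scaled by length, gave another order, with YWHAZ first at 30.9% of the family's counts and YWHAE second at 25.2%. YWHAB held 16.9% of the counts and SFN 3.67%, the reverse of their order in FPKM. The length implied by counts and FPKM together was 1521 bases for SFN, 4290 for YWHAE, 9197 for YWHAB and 9954 for YWHAZ. The longest annotated 3′ UTR of YWHAB has 2094 bases and its coding sequence 741. The order in FPKM, and shares of FPKM, thus depend on these lengths.

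In siNUF2 cells YWHAE had the third highest mean level. The order of mean levels was YWHAQ, YWHAZ, YWHAE, SFN, YWHAB, YWHAG and YWHAH. The libraries of YWHAQ overlapped with those of YWHAZ, and those of YWHAZ with those of YWHAE, so these neighbours did not differ beyond their spread, while every library of YWHAQ was above every library of YWHAE. The 4 members below them kept the order they had in siCtrl, again without overlap between neighbours. The span between the highest and the lowest member narrowed to 3.16 to 3.90 times within a library.

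**Figure D1:**
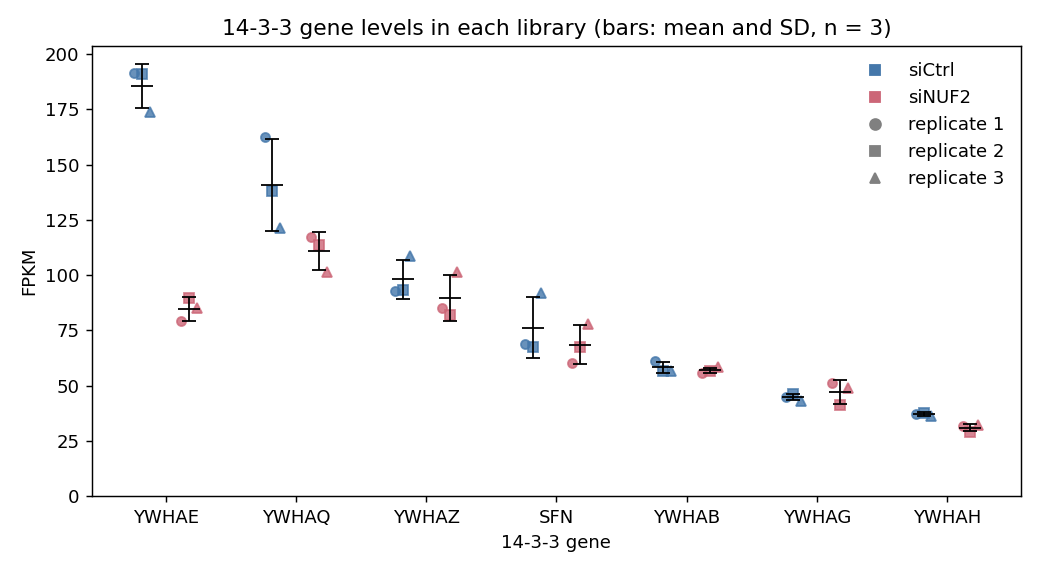
FPKM (vertical axis) of the 7 members of the 14-3-3 family in each library, with siCtrl in blue, siNUF2 in red, a symbol for each replicate number and black bars for mean and SD (n = 3). YWHAE fell from 185 to 84.6 FPKM with a wide gap between the groups, YWHAQ and YWHAH had a narrow gap, and the other 4 members overlapped.

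YWHAE (ENSG00000108953, chr17:1344275-1400222, minus strand) encodes 14-3-3 epsilon, the member that dimerizes with nearly all others. Its level was 191, 191 and 174 FPKM in siCtrl libraries 1 to 3 and 79.1, 89.7 and 85.0 FPKM in siNUF2 libraries 1 to 3. The siNUF2 libraries lay far below the siCtrl libraries, with no overlap, and the siNUF2 mean was 45.6% of the siCtrl mean. The log2 fold change was -1.11 ± 0.09 (SE), with a Benjamini-Hochberg adjusted p of 0.00186 in edgeR, which is the value the family was chosen on. Between libraries of the same replicate number, the siNUF2 level was 41.3%, 47.0% and 48.9% of siCtrl. The counts behind these levels were between 47668 and 56939 in siCtrl and between 22530 and 26589 in siNUF2, so counting error is small beside the spread of libraries. YWHAE held rank 49 from the lowest fold change among the 289 genes that fell.

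YWHAQ (ENSG00000134308, chr2:9583967-9630997, minus strand) encodes 14-3-3 theta, also called tau. It read 163, 138 and 121 FPKM in siCtrl and 117, 114 and 101 FPKM in siNUF2. The groups did not overlap, but the gap between the highest siNUF2 and the lowest siCtrl library was smaller than the range within siCtrl. The siNUF2 mean was 78.8% of siCtrl, and the log2 fold change of -0.32 ± 0.12 (SE) did not pass the threshold (edgeR adjusted p = 0.222). Without siCtrl library 1 it was -0.21. In both groups YWHAQ was highest in library 1 and lowest in library 3. With the replicate number as a block the log2 fold change was -0.32 ± 0.07 and passed (edgeR adjusted p = 0.0260), and the same-number levels were 72.2%, 82.5% and 83.5% of siCtrl.

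YWHAH (ENSG00000128245, chr22:31944522-31957603, plus strand) encodes 14-3-3 eta and was the least abundant member. It read 37.4, 37.8 and 36.3 FPKM in siCtrl and 31.6, 29.2 and 32.1 FPKM in siNUF2, again without overlap. The siNUF2 mean was 83.3% of siCtrl with a log2 fold change of -0.24 ± 0.09 (SE), which passed the threshold neither without the block (edgeR adjusted p = 0.187) nor with it (0.0647). A gene of few counts, C22orf24, overlaps YWHAH on the opposite strand with between 4 and 32 counts in a library, and the strand setting of the counting is not given in the sources used here.

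The other 4 members had overlapping groups. YWHAZ (ENSG00000164924), which encodes 14-3-3 zeta, read 92.9, 93.3 and 108 FPKM in siCtrl and 85.2, 82.1 and 101 in siNUF2. SFN (ENSG00000175793, chr1:26863149-26864456, plus strand), a gene of 1 exon, read 68.9, 67.5 and 92.1 FPKM in siCtrl and 60.3, 67.3 and 77.8 in siNUF2. Both were highest in library 3 of each group, and in both the SD within siCtrl was larger than the difference between the group means. Between libraries of the same number, both were lower in siNUF2 in 3 of 3 pairs, and neither passed with the block. Their siNUF2 means were 91.2% and 89.9% of siCtrl, with log2 fold changes of -0.11 ± 0.11 and -0.13 ± 0.15 (SE).

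YWHAB (ENSG00000166913, chr20:44885702-44908532, plus strand) and YWHAG (ENSG00000170027, chr7:76326799-76358991, minus strand) encode the beta and gamma proteins, both of which bind RAF kinases. YWHAB read 61.2, 56.8 and 56.8 FPKM in siCtrl and 55.7, 56.7 and 58.3 in siNUF2. YWHAG read 44.9, 46.2 and 43.3 FPKM in siCtrl and 51.2, 41.1 and 49.1 in siNUF2. The mean of YWHAB stayed at 97.6% of siCtrl with a log2 fold change of -0.01 ± 0.08 (SE), the smallest of the family in size. YWHAG was the only member with a higher siNUF2 mean, at 105% of siCtrl with a log2 fold change of 0.09 ± 0.10 (SE).

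Counted together, 1 of the 7 members passed the threshold as lower and 0 as higher, beside 2.46% of all tested genes lower and 1.53% higher. Leaving out any 1 library kept YWHAE as the 1 member that passed. With the replicate block 2 members passed as lower and 0 as higher, beside 7.91% and 6.64% of all genes. All siNUF2 libraries lay below all siCtrl libraries in 3 members, beside 13.4% of all genes. The sign of the log2 fold change was negative in 6 members and positive in 1, with YWHAB turning positive without siCtrl library 1 or siNUF2 library 1 and SFN without siCtrl library 3, and the median was -0.13 beside 0.01 over all genes tested. Since YWHAE chose the family, these counts are printed without a reading of the family as a group.

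**Figure D2:**
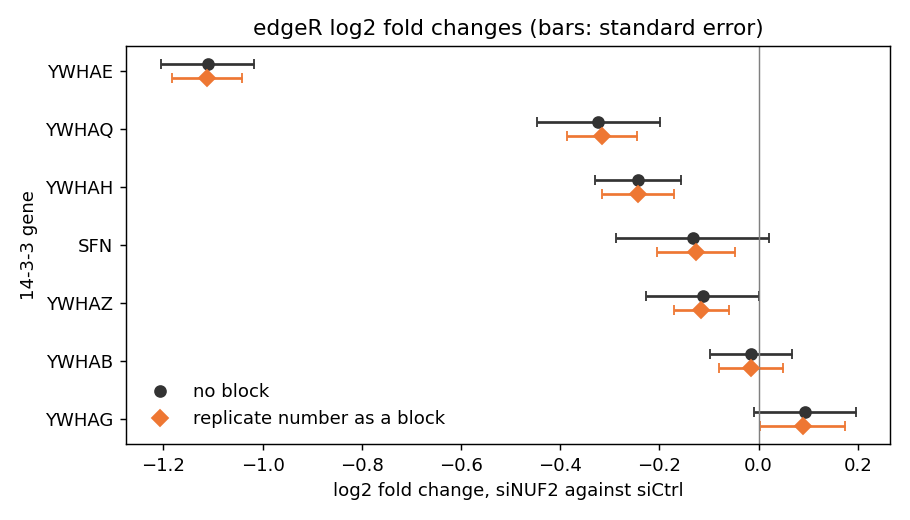
Log2 fold change of siNUF2 against siCtrl (horizontal axis) for the 7 members, from edgeR without a block (black circles) and blocked on the replicate number (orange diamonds), with standard errors as bars. YWHAE stands alone at -1.11, and the bars of YWHAQ narrow from 0.12 to 0.07 with the block.

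The composition of the 14-3-3 pool differed between the groups. The share of YWHAE in the summed FPKM of the family was 29.0%, 30.3% and 27.5% in siCtrl libraries 1 to 3, against 16.5%, 18.7% and 16.8% in siNUF2, without overlap. The mean share went from 28.9 ± 1.38% to 17.3 ± 1.19% (SD, n = 3), a difference of -11.6 percentage points. The shares of all 6 other members had higher means in siNUF2, and a lower share of 1 member raises those of the rest by construction. The siNUF2 libraries were all above the siCtrl libraries for YWHAB (9.10% to 11.6%), YWHAG (6.99% to 9.65%) and YWHAH (5.80% to 6.34%), and overlapped with them for YWHAQ (21.9% to 22.7%), YWHAZ (15.3% to 18.3%) and SFN (11.9% in siCtrl, and higher by 2.09 percentage points in siNUF2). YWHAH thus had a lower level and a higher share in siNUF2. In shares of counts, YWHAE went from 25.2% to 14.4% and YWHAZ from 30.9% to 35.3%.

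**Figure D3:**
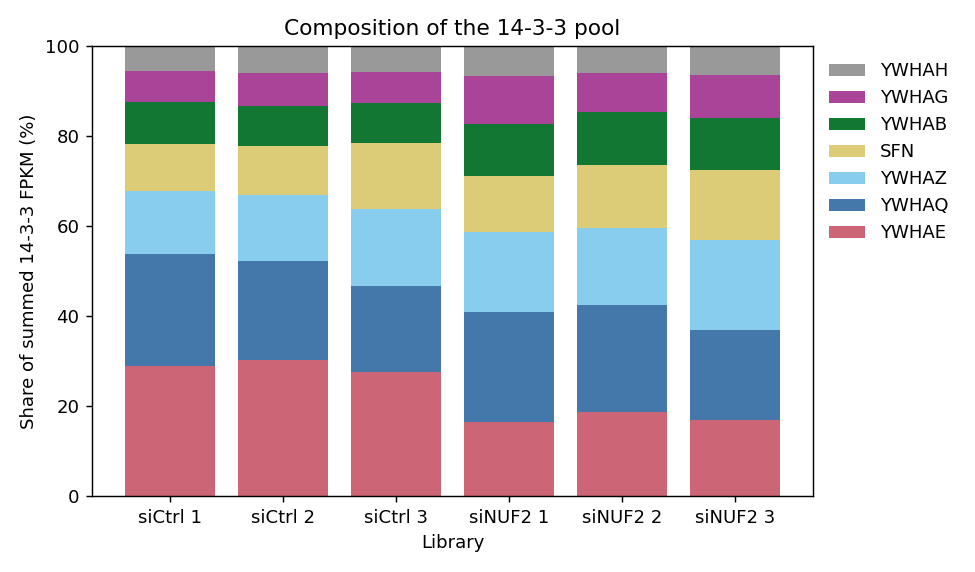
Share of each member in the summed 14-3-3 FPKM (vertical axis, %) in each of the 6 libraries. The YWHAE segment at the base of each column had a mean height of 28.9% in siCtrl and 17.3% in siNUF2.

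The pool as a whole was smaller in siNUF2. The summed FPKM of the 7 members was 659, 630 and 632 in siCtrl and 480, 480 and 505 in siNUF2, 76.3% of the siCtrl mean. YWHAE made up 66.3% of the FPKM lost and YWHAQ 19.6%. Without YWHAE the sum went from 455 ± 14.3 to 404 ± 14.9 FPKM (88.7%), still without overlap. Without YWHAE, YWHAQ and YWHAH it went from 277 ± 20.2 to 262 ± 21.3 FPKM (94.5%) with overlapping libraries. This sum was 268, 264 and 301 FPKM in siCtrl and 252, 247 and 287 in siNUF2, lower in each of the 3 same-number pairs. As a share of all counts in a library, the family went from 0.316% to 0.252%.

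The members' rows were checked for reads that could be shared with similar sequences. Between coding sequences of the family, identity ran up to 78.5% (YWHAG with YWHAH, which also share the longest run of identical bases, 39 nt). YWHAE was the most distant member, with at most 64.8% identity to any other (YWHAQ) and 61.1% to SFN. The table holds 8 pseudogenes named after members, of which only YWHAEP1 had a mean of at least 1 FPKM. YWHAEP1 shares a run of 62 identical bases with YWHAE and had 155, 101 and 55 counts in siCtrl and 42, 60 and 15 in siNUF2, 0.184% of the counts of YWHAE. Its log2 fold change was -1.36 ± 0.52 (edgeR adjusted p = 0.227, and 0.0343 with the block), and its counts are uncertain because reads of YWHAE can align there. A gene on the opposite strand within YWHAE had at most 10 counts in a library.

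The genes whose levels followed YWHAE most closely over the 6 libraries were LSM5, NUF2, MAP3K5, MEAF6 and ZCCHC4. LSM5 encodes a subunit of the LSM ring that binds U6 RNA and decapping substrates, MAP3K5 the stress kinase ASK1, MEAF6 a subunit of histone acetyltransferase complexes and ZCCHC4 an RNA methyltransferase. Pearson's r of log2 CPM with YWHAE was 0.999 for LSM5, 0.998 for NUF2, 0.998 for MAP3K5, 0.995 for MEAF6 and 0.995 for ZCCHC4, across 6 libraries in 2 groups. The 6 points fall in 2 groups that differ in YWHAE, and 217 genes had an r above 0.95. On log2(FPKM + 1) the first 4 kept their places and ZCCHC4 was at place 9. Among the members, r was 0.934 for YWHAH, 0.782 for YWHAQ, 0.384 for YWHAZ, 0.298 for SFN, 0.235 for YWHAB and -0.50 for YWHAG. Among LSM5, NUF2, MAP3K5, MEAF6 and ZCCHC4, log2 fold changes ran from -0.41 for LSM5 to -2.99 for NUF2, beside -1.11 for YWHAE. LSM5 lost its call in edgeR when any 1 library was left out (adjusted p from 0.0782 to 0.160), and ZCCHC4 did not pass (0.0730) except with the block (0.0271) and in DESeq2 (0.00731). MEAF6 holds 2 copies of TATGGAA in its 3′ UTR and MAP3K5 1 copy, while LSM5 and ZCCHC4 hold none.

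Over the 10174 tested genes with such a 3′ UTR, those that hold TATGGAA had lower median log2 fold changes. The median was 0.02 over 8537 genes without a copy, -0.08 over 1347 genes with 1 copy and -0.17 over 290 genes with 2 or more. The shares of these groups that passed as lower were 1.37%, 9.06% and 15.5%. YWHAE, with 1 copy, was at place 35 from the lowest of the 1637 genes with the word, and YWHAQ, with 2 copies, at place 443. The 5 members without the word had log2 fold changes between -0.24 (YWHAH) and 0.09 (YWHAG). The length and base composition of the 3′ UTRs were not compared between genes with and without the word. The part of the word in the levels of YWHAE and YWHAQ was not tested.

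**Figure D4:**
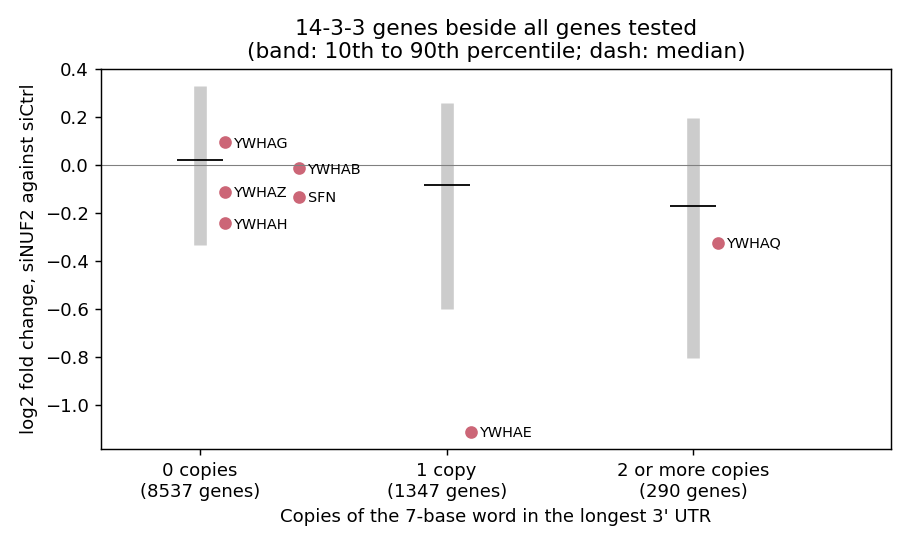
Log2 fold change of siNUF2 against siCtrl (vertical axis) by the number of copies of the 7-base word in the longest 3′ UTR, with grey bands from the 10th to the 90th percentile of all genes, black dashes at their medians (0.02, -0.08 and -0.17) and red points for the 14-3-3 genes. YWHAE lies below the band of genes with 1 copy, and the other 6 members lie inside the band of their group.

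Among transcripts of 14-3-3 clients, MAP3K5 fell and KIF1C rose, which without the block is close to the shares over all genes. Of 53 genes for well-described clients, 51 were tested, of which 1 fell, 1 rose and 49 did not pass, beside 2.46% and 1.53% of all genes. Their median log2 fold change was -0.06, beside 0.01 over all genes. With the replicate block 7 fell and 7 rose, beside 7.91% and 6.64% of all genes. The log2 fold changes printed for list genes are those without the block, also beside a p with it. The lists concern transcripts only, and 14-3-3 binding depends on phosphorylation of the proteins, which was not measured.

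Among 9 clients of survival and Hippo signalling, MAP3K5 fell. Its kinase, ASK1, is held inactive by 14-3-3 binding until oxidative stress releases it. MAP3K5 read 3.61, 3.75 and 3.26 FPKM in siCtrl and 1.78, 1.97 and 1.82 in siNUF2, without overlap. The log2 fold change was -0.91 ± 0.14 (edgeR adjusted p = 0.0138), and the call was lost without siCtrl library 1 (0.0634), siCtrl library 2 (0.0503) or siNUF2 library 1 (0.0718). The other 8 clients of this list did not pass without the block. With the block 2 clients of the list fell, MAP3K5 and WWTR1 (log2 fold change -0.45, edgeR adjusted p = 0.0296), and 2 rose, FOXO4 (0.76, 0.0161) and YAP1 (0.46, 0.0189). Over all genes, the block gave 7.91% lower and 6.64% higher. WWTR1 and YAP1 encode TAZ and YAP, the coactivators that Hippo signalling holds in the cytoplasm, and FOXO4 a forkhead factor.

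Among 5 clients of the cytoskeleton, KIF1C rose, beside 1.53% of all genes. KIF1C encodes a kinesin motor whose tail binds 14-3-3 proteins. It read 17.2, 17.3 and 19.5 FPKM in siCtrl and 26.9, 22.4 and 24.6 in siNUF2, without overlap. The log2 fold change was 0.47 ± 0.10 (edgeR adjusted p = 0.0451), just inside the threshold, and leaving out any 1 library put it outside (0.0578 to 0.162). With the block PPP1R12A, a myosin phosphatase subunit, fell (-0.46, edgeR adjusted p = 0.0185), and SSH1, a cofilin phosphatase, rose beside KIF1C (0.49, 0.00636). Thus 1 client of this list fell and 2 rose with the block, beside 7.91% and 6.64% of all genes.

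None of the 10 cell cycle clients passed without the block, and with it 3 fell and 1 rose, beside 7.91% and 6.64% of all genes. The members of this list with the largest differences were CDKN1B, which encodes the CDK inhibitor p27, and CDC25C, the phosphatase that activates CDK1. CDKN1B read 9.99 ± 2.00 FPKM in siCtrl and 6.39 ± 1.59 in siNUF2 (n = 3), with a log2 fold change of -0.62 ± 0.22 (edgeR adjusted p = 0.184, and 0.0133 with the block). CDC25C read 9.19 ± 0.274 FPKM in siCtrl and 6.46 ± 0.301 in siNUF2 (n = 3), with a log2 fold change of -0.49 ± 0.11 (edgeR adjusted p = 0.0529, and 0.0227 with the block). CDC25C also passed in DESeq2 (adjusted p = 0.00544) and in limma on log2(FPKM + 1) (0.0370) and log2(FPKM + 0.1) (0.0357). In edgeR, CDC25C passed with a filter at a mean of 5 FPKM (adjusted p = 0.0472) but not without a filter (0.137). No edgeR fit with a library left out called CDC25C (0.0841 to 0.177). The other genes that passed with the block were WEE1, the kinase that inhibits CDK1 (log2 fold change -0.48, edgeR adjusted p = 0.00550), and CDC25A, a phosphatase of CDK2 (0.46, 0.0277). Neither CDKN1B nor CDC25C had libraries that overlapped between the groups. CDKN1B holds 1 copy of TATGGAA in its 3′ UTR and CDC25C none.

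None of the 7 RAS and RAF clients, the 11 insulin and mTOR clients or the 9 tested clients of transcription and RNA passed without the block. In the first list the largest differences were those of SOS1, the exchange factor that loads RAS with GTP (log2 fold change -0.44 ± 0.12, edgeR adjusted p = 0.102, 0.0402 with the block, and 0.0315 in DESeq2), and KSR1, a RAF scaffold (-0.30 ± 0.17). In the second they were those of IRS2, an insulin receptor substrate (-0.42 ± 0.17), and AKT1S1, the mTORC1 inhibitor PRAS40 (0.30 ± 0.12, edgeR adjusted p = 0.249, and 0.0477 with the block). In the third they were those of ZFP36L1, which binds AU-rich elements in mRNA (0.41 ± 0.14), and CRTC1, a CREB coactivator (-0.36 ± 0.21), and with the block KHSRP, an RNA-binding protein of the same elements, rose (0.26, edgeR adjusted p = 0.0389). Over all genes, the block gave 7.91% lower and 6.64% higher. The log2 fold changes rested in part on single libraries, with -0.11 for KSR1 and -0.16 for CRTC1 without siCtrl library 1, and -0.25 for IRS2 and 0.20 for AKT1S1 without siCtrl library 2.

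Of 27 tested kinases that phosphorylate 14-3-3 binding sites, 1 fell and 26 did not pass, beside 2.46% lower and 1.53% higher over all genes, with a median log2 fold change of 0.07. MARK3, also called C-TAK1, phosphorylates the 14-3-3 site of CDC25C. It read 9.35, 10.6 and 9.27 FPKM in siCtrl and 6.18, 6.27 and 6.03 in siNUF2, without overlap, and holds 1 copy of TATGGAA in its 3′ UTR. The log2 fold change was -0.64 ± 0.09 (edgeR adjusted p = 0.0117), and the call was lost without siNUF2 library 1 (0.0611). With the replicate block 3 kinases fell and 1 rose, beside 7.91% and 6.64% of all genes.

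Of 8 genes that regulate the 14-3-3 proteins themselves, none passed without the block, and their median log2 fold change was 0.03. MAPK8 encodes JNK1, which phosphorylates 14-3-3 proteins and releases clients. It read 3.40, 4.29 and 4.55 FPKM in siCtrl and 5.42, 5.71 and 6.38 in siNUF2, with a log2 fold change of 0.54 ± 0.13 (edgeR adjusted p = 0.0744, 0.00574 with the block, and 0.0105 in DESeq2). PRKCD encodes protein kinase C delta, whose catalytic fragment phosphorylates the dimer interface. It read 6.42, 6.10 and 7.93 FPKM in siCtrl and 4.16, 4.39 and 5.96 in siNUF2, with a log2 fold change of -0.48 ± 0.18 (edgeR adjusted p = 0.219, and 0.0284 with the block). With the block 1 of these regulators fell and 1 rose, beside 7.91% and 6.64% of all genes.

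**Figure D5:**
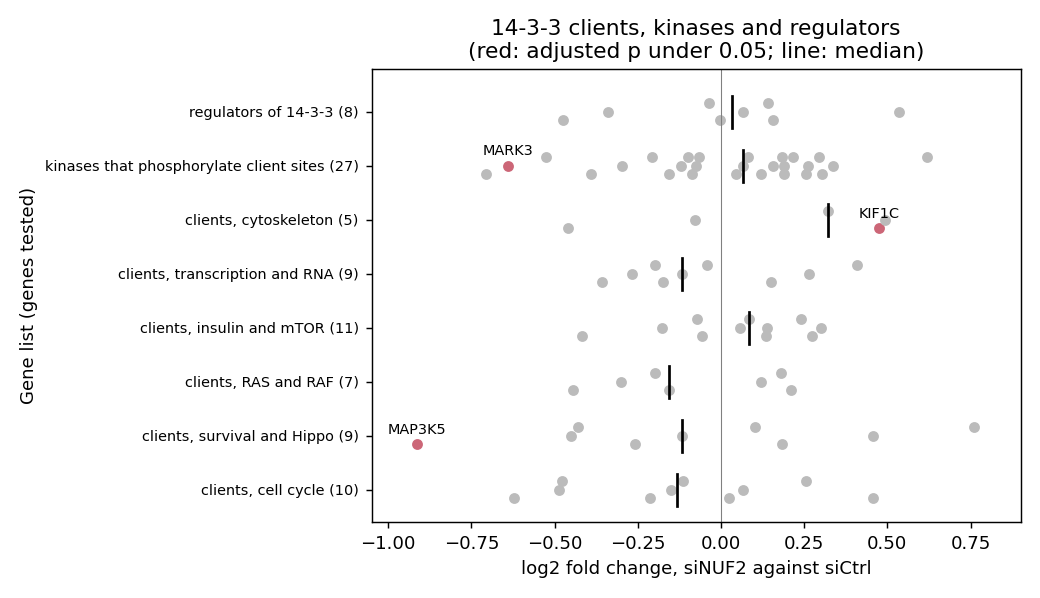
Log2 fold change of siNUF2 against siCtrl (horizontal axis) for every tested gene of the client, kinase and regulator lists, with red points for an adjusted p under 0.05 and black lines at the list medians. The red points are MAP3K5 (-0.91), MARK3 (-0.64) and KIF1C (0.47), and the grey points are spread over both sides of 0.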

How the data were processed

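Poly(A) RNA of 8505C cells was sequenced as paired-end reads. Per the labels and the methods, the authors used fastp, aligned to GRCh38 with HISAT2 and calculated FPKM with StringTie. The authors deposited 2 kinds of value per gene, FPKM, which adjust for length and depth, and raw counts, which are not normalized. Versions, the annotation release, the counting tool and the strand setting are not given in the sources used here. No column of values was left out.

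After a filter at a mean of 1 FPKM across all 6 libraries, the counts were tested with edgeR 4.0.16 in R 4.3.3 (TMM, quasi-likelihood test, no covariate), with Benjamini-Hochberg adjustment over all genes tested and a threshold of 0.05. Alternatives were DESeq2 1.42.0, limma 3.58.1 on log2(FPKM + 1) and log2(FPKM + 0.1), other scaling and filters, the replicate number as a block, and each library left out. The code was tested on simulated data. Each standard error (SE) of a log2 fold change was its absolute value divided by the square root of edgeR's F statistic. Likeness used log2 CPM with a prior count of 2.

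Across genes, deviations from the group means were correlated between siCtrl and siNUF2 libraries. The correlations were 0.344 to 0.446 for the same number and -0.26 to -0.14 for other numbers. A group's deviations cancel out over its libraries, so positive correlations for the same number lower the others. Libraries of the same number thus varied alike. The labels do not say what a number shares. Counts of replicate libraries were further apart than sampling noise gives, with a chi-square of 54.7 to 77.7 per degree of freedom.

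Coordinates, UTRs and coding sequences came from GENCODE release 44 on GRCh38. Of the 7 members, 6 have the same start and end there as in the deposited table. Coding sequences were compared in place of proteins, for which no reference was used here.

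Named genes are the members, NUF2, named copies of members at or above the filter, genes overlapping a member, the 5 genes most like YWHAE, list genes past the threshold and, for a list with none, the 2 with the largest differences. Marker genes, YWHAZP3 and the list genes named for a call with the block alone were named outside this rule, after their values were seen, and some listed genes are not reported here. The members and lists were chosen with earlier results of these data known.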

Additional observations from a re-analysis of the deposited data

How the results depend on the processing

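The log2 fold change of YWHAE lay between -1.13 and -1.11 under every alternative fit (adjusted p at most 0.00588) and between -1.16 and -1.06 with a library left out (0.00668 to 0.0166). The difference in its share was -12.3 to -10.9 percentage points with a library left out, -12.7 without SFN in the sum and -10.7 in counts. The summed FPKM was 75.0% to 77.4% of siCtrl with a library left out, and the sum of TMM-scaled CPM was 80.8%. By CPM, YWHAE ranked 2 in siCtrl. Of 13 alternatives, YWHAB kept its direction in 11 and SFN in 12, and the other 5 members in all 13.

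The number of genes passing was 468 (2129 at an unadjusted p under 0.05), 188 without the filter, 972 with DESeq2, 1705 with the replicate block and 124 to 251 with a library left out. Members passing went from 1 to 2 with the block, through YWHAQ, and the block changed no other member's call. Clients passing went from 2 to 1 without the filter, 9 with DESeq2, 14 with the block and 0 to 2 with a library left out. Kinases went from 1 to 3 with DESeq2, 4 with the block and 0 to 1 with a library left out, and regulators from 0 to 1 with DESeq2 and 2 with the block. With the 6-base word, 5 members held a match in place of 2.

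Members' calls and fold changes rest on 3 libraries a group, and the least abundant member had at least 5520 counts in a library. Leaving a library out leaves 2 in its group.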

Other observations

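The genes around YWHAE on chromosome 17 were examined for a difference that reached beyond it. Of the genes within 500000 bases of either end, 15 were tested and 0 passed edgeR's threshold. Their log2 fold changes lay between -0.34 and 0.44, with a median of 0.09, beside -1.11 for YWHAE.

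Of the 8 pseudogenes, YWHAZP3 had the highest counts after YWHAEP1. It shares a run of 221 identical bases with YWHAZ and had 42, 36 and 42 counts in siCtrl and 27, 35 and 68 in siNUF2, with overlapping groups. It stayed under the filter on low values, and its counts are uncertain because reads of YWHAZ can align there.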
